A study of Caenorhabditis elegans with 6 samples.

Results

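The cyp-35 genes encode family 35 of the cytochromes P450 of the nematode Caenorhabditis elegans. The family was followed here through its 10 genes, cyp-35A1 to cyp-35A5, cyp-35B1 to cyp-35B3, cyp-35C1 and cyp-35D1, which were chosen by name among the 46904 gene IDs measured and all had a row in the count tables. They stood among 75 P450 genes in all, 74 with a cyp symbol and the P450 gene daf-9. RNA came from whole hermaphrodites of the strain N2, the laboratory wild type, on day 3 of adulthood. In 3 libraries the animals had spent 72 h at 25 °C on agar with 10 mM caffeine, and in 3 control libraries they had spent the same time on agar without it. All groups received the same bacterial food, OP50, from the last larval stage on, and each library was made from a pool of animals. The labels call the samples biological replicates without saying whether they came from separate cultures, so p-values measure the spread between these samples.

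Cytochromes P450 are haem enzymes that insert oxygen into fat-soluble molecules. They take their electrons from a reductase that many P450s share, and some also receive them from cytochrome b5. The cyp-35 genes of C. elegans are known as genes that many foreign chemicals induce, mostly in the intestine, and lowering the activity of cyp-35A genes has been found to reduce fat stores. Caffeine is a methylxanthine, and in humans a liver P450 begins its breakdown. 

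The libraries summed to between 40417780 and 40746556 counts, so that counts of a gene can be read side by side across libraries. Levels are given in CPM, counts scaled to library size with factors from the trimmed mean of M-values (TMM). Where genes are compared with each other, the level was divided by the length of the annotated exons (CPM per kilobase). Sums of marker genes for intestine overlapped between the groups, at 2335 to 2566 CPM in caffeine and 2275 to 2638 CPM in control libraries, with 10 of 10 markers detected. Of these 10 genes, 2 were called higher with caffeine (vha-6 at a log2 fold change of 0.91 and asp-1 at 0.36), where 13.8% of all 14200 tested genes were called higher. The other 5 called genes were lower, from -0.34 in erm-1 to -1.15 in pept-1, with the intestinal regulator elt-2 at -0.69, where 10.5% of all tested genes were called lower. Markers of epidermis summed to between 561 and 679 CPM in caffeine and between 352 and 386 CPM in control libraries. Of these 7 genes, the collagen genes col-19 and col-119 were called higher and dpy-10 lower. Muscle markers summed to between 534 and 696 CPM with caffeine and between 419 and 472 CPM in control. Of these 5 genes, myo-3 and unc-54 were called higher and the others were not called. Neuron markers summed to between 63.0 and 69.4 CPM with caffeine and between 46.7 and 51.05 CPM in control. Of these 6 genes, ric-4 and egl-3 were called higher and the others were not called. Germ line markers summed to between 4431 and 5562 CPM with caffeine and between 5493 and 5654 CPM in control. Sperm genes, with 31 of 34 detected, ranged from 0.776 to 32.2 CPM with caffeine and from 10.7 to 90.7 CPM in control. The part of these cell types in the results below was not tested, and in RNA from whole animals a change in the number of cells of a type and a change in RNA per cell cannot be told apart.

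Each cyp-35 gene that had enough counts to be tested was higher in caffeine libraries. Of the 10 genes, 9 passed the count filter, and these 9 were called higher (adjusted p under 0.05), beside the 13.8% of all tested genes. Each of the 9 was also called at 2-fold or more, where 5.94% of tested genes were. In each of the 9, all 3 caffeine values lay above all 3 control values, which held for 23.3% of all tested genes. cyp-35A5 and cyp-35B2 passed the filter only through their caffeine libraries, the group where they are high, so the filter favoured a rise in them. cyp-35B3 was not tested. The count over the genes that passed is therefore a description of the family. Log2 fold changes of the 9 genes ran from 2.33 to 10.36 with a median of 7.0, beside a median of 0.00 for all tested genes. Adjusted p-values of the 9 genes were at most 0.000113 (edgeR quasi-likelihood test, Benjamini-Hochberg over all tested genes). Rises at least as large as the smallest of these, that of cyp-35B1, were called in 1.14% of tested genes.

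**Figure D1:**
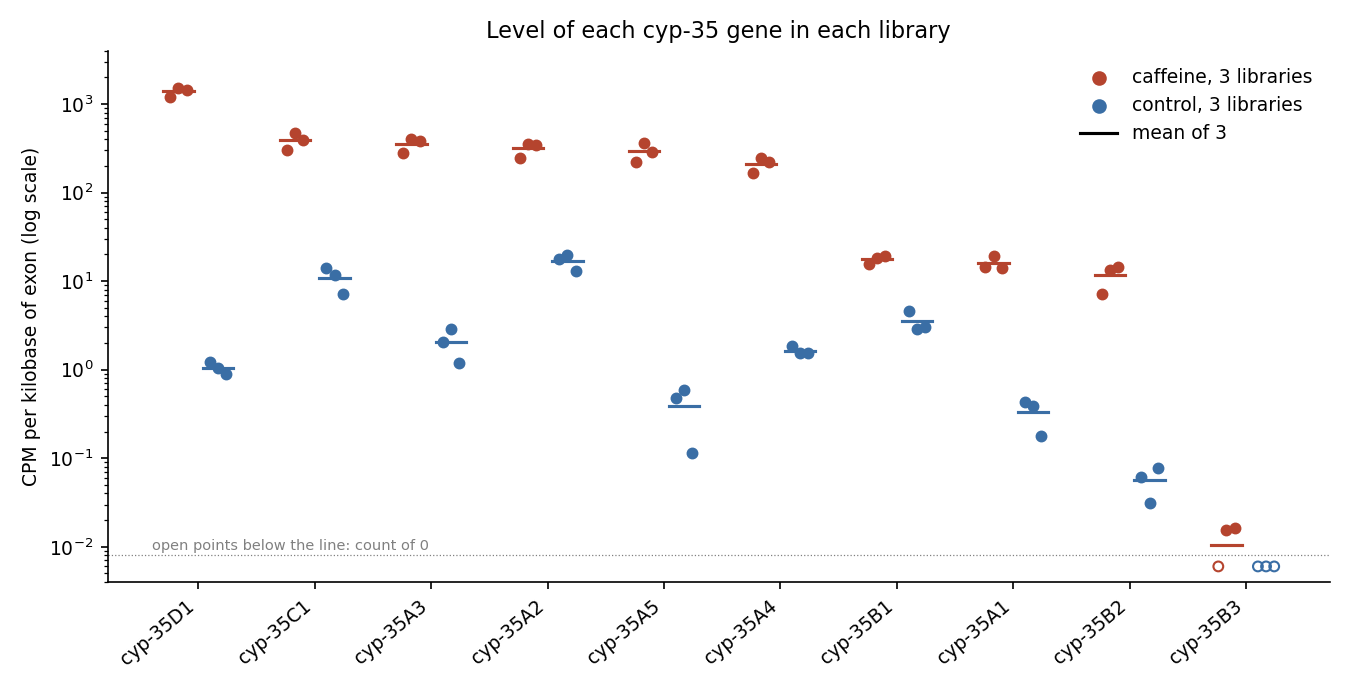
Level of each cyp-35 gene in CPM per kilobase of exon on a log axis, with 3 caffeine libraries (red) left of 3 control libraries (blue), points for libraries and bars for means. Apart from cyp-35B3, which had counts of 0 and 1, the caffeine points of each gene lie above all of its control points, and cyp-35D1 spans the widest distance.

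cyp-35D1 showed the largest change in the family. This gene is known in C. elegans for a part in the metabolism of the drug thiabendazole. It lies on chromosome V (16069238 to 16071318, plus strand, WBcel235). It had 73291, 103894 and 93883 counts in caffeine libraries 1 to 3, against 77, 65 and 57 counts in control libraries 1 to 3. The lowest caffeine level was 991 times the highest control level. The mean was 2187 ± 266 CPM with caffeine and 1.66 ± 0.242 CPM in control (SD, n = 3 each), a log2 fold change of 10.36 (SE 0.17). Among all genes ranked by CPM per kilobase, cyp-35D1 stood at place 81, 26 and 39 in caffeine libraries 1 to 3 and between places 10529 and 11037 in the controls. Among the 3450 genes called changed, its log2 fold change ranked 4. The pseudogene WBGene00014735 stood above it in this rank, although its fitted change has no firm size, with 0 counts in each control library.

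The cyp-35A genes differed widely in their control level, which was lowest in cyp-35A1 and cyp-35A5 and highest in cyp-35A2. cyp-35A5 (chromosome V, 3936326 to 3938597, plus strand) had 15029, 27167 and 20704 counts with caffeine, against 33, 40 and 8 in control. Its log2 fold change was 9.54 (SE 0.34), rank 5 among called genes. Its control values spread widely, with a coefficient of variation of 62.5%, while its caffeine values had one of 23.7%.

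cyp-35A3 (chromosome V, 4022609 to 4024482, plus strand) had 17389, 27780 and 25055 counts with caffeine, against 133, 180 and 75 in control, a log2 fold change of 7.45 (SE 0.28). cyp-35A4 (chromosome V, 4031619 to 4033446, plus strand) had 10105, 16455 and 14238 counts with caffeine, against 116, 94 and 97 in control, a log2 fold change of 7.0 (SE 0.18). In both genes the groups lay far apart: the lowest caffeine level was 98.9 times the highest control level for cyp-35A3 and 90.7 times for cyp-35A4.

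cyp-35A2 (chromosome V, 7362319 to 7364182, minus strand) had 15283, 24561 and 22350 counts with caffeine, against 1131, 1249 and 833 in control. Its log2 fold change was 4.23 (SE 0.19), the smallest among the cyp-35A genes, and its control level was the highest of the whole family. cyp-35A1 (chromosome V, 7359929 to 7361773, minus strand), which lies 545 bases from it on the same strand, had 863, 1293 and 899 counts with caffeine, against 27, 24 and 11 in control. Its log2 fold change was 5.57 (SE 0.26). The level of cyp-35A1 per kilobase was between 0.0413 and 0.0580 of that of cyp-35A2 in caffeine libraries and between 0.0136 and 0.0245 of it in control libraries.

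The cyp-35B genes and cyp-35A5 lie in a row on chromosome V, all on the plus strand, and did not move alike. cyp-35B1 (3939032 to 3941237) had 987, 1304 and 1294 counts with caffeine, against 309, 188 and 198 in control. Its log2 fold change of 2.33 (SE 0.19) was the smallest in the family. cyp-35B2 (3942160 to 3944523) had 449, 945 and 968 counts with caffeine, against 4, 2 and 5 in control, a log2 fold change of 7.65 (SE 0.42). cyp-35B3 (3945353 to 3947044) had 0, 1 and 1 counts with caffeine and 0 in each control library. A count of 0 allows up to 3 counts in a library, or 0.0755 CPM, so no fold change can be given for it at this depth.

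The annotated gap between cyp-35A5 and cyp-35B1 is 434 bases and that between cyp-35B1 and cyp-35B2 is 922 bases. cyp-35B1 was at 4.93 to 25.9 times the per-kilobase level of cyp-35A5 in control libraries, and at 0.0503 to 0.0688 times its level in caffeine libraries. Against cyp-35B2, cyp-35B1 was at 1.31 to 2.16 times the per-kilobase level with caffeine and at 38.95 to 92.5 times in control. These ratios, like the other ratios between members given here, were chosen after the values had been seen and have no test.

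cyp-35C1 (chromosome V, 13896663 to 13898487, minus strand), the sole member of its branch, had 18088, 31425 and 24891 counts with caffeine, against 877, 713 and 436 in control. Its log2 fold change was 5.15 (SE 0.27). It ranked 2 among the members in both groups, at 598 ± 129 CPM with caffeine and 16.8 ± 5.49 CPM in control (SD, n = 3 each).

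Near-identical sequences can split reads between genes, and P450 genes are a multigene family. Expected counts of 8 of the 10 genes were whole in every library. cyp-35A1 and cyp-35A2 each had 1 value that was not whole, in caffeine library 2, and it lay 0.05 from a whole number in each gene. No protein-coding gene overlaps a member in the annotation. The non-coding RNA genes K07C6.16 and K07C6.17, antisense to cyp-35B1 and cyp-35B3, had 0 counts.

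Most members shared their lowest and highest caffeine library. The lowest caffeine value fell in library 1 for 8 of the 9 tested genes and the highest in library 2 for 7 of them. Over all tested genes, library 1 was lowest among the caffeine libraries in 40.04% and library 2 highest in 33.95%. The pattern was not limited to the family: of the 54 other tested P450 genes, library 1 was lowest in 33 and library 2 highest in 25. In control, library 3 was lowest for 6 of the 9 genes, for 24 of the 54 other P450 genes and for 34.3% of all tested genes. Coefficients of variation of the 9 genes ran from 10.8% to 34.02% with caffeine and from 10.9% to 62.5% in control.

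The cyp-35 family made up most P450 counts with caffeine and a small part of them in control. The family took 77.9%, 80.6% and 80.4% of all P450 counts in caffeine libraries 1 to 3, against 7.57%, 7.45% and 5.23% in control libraries 1 to 3. Exact binomial 95% intervals treat reads as independent, which they are not, and leave out the spread between libraries. They ran from 77.7% to 78.04% for the lowest caffeine library and from 7.30% to 7.85% for the highest control library. The mean share was 79.6% ± 1.54 with caffeine and 6.75% ± 1.32 in control (SD, n = 3 each), a difference of 72.9 percentage points. The exact two-sided permutation test gave p = 0.1, the smallest p that 3 against 3 libraries allow. Of all counts in the libraries, the family took 0.486% ± 0.103 with caffeine and 0.00573% ± 0.00132 in control, again with an exact permutation p of 0.1 (n = 3 each).

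cyp-35D1 alone held 37.7%, 35.7% and 36.96% of P450 counts with caffeine, against 0.215%, 0.190% and 0.173% in control. The remaining 9 genes together held 42.9% ± 2.44 with caffeine and 6.56% ± 1.304 in control (SD, n = 3 each), so that the family's share was higher with caffeine when cyp-35D1 was not counted in it. cyp-35C1 held 9.96% ± 0.759 of P450 counts with caffeine and 1.95% ± 0.575 in control, and cyp-35A3 held 9.45% ± 0.470 with caffeine and 0.375% ± 0.149 in control. cyp-35A2 held 8.36% ± 0.476 with caffeine and 3.11% ± 0.558 in control. The one tested member with a smaller share of P450 counts under caffeine was cyp-35B1, at 0.488% ± 0.0350 with caffeine and 0.672% ± 0.169 in control, although its own level rose. Its shares of 0.507%, 0.448% and 0.509% in caffeine libraries lay below those in control libraries, at 0.865%, 0.548% and 0.602%.

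**Figure D2:**
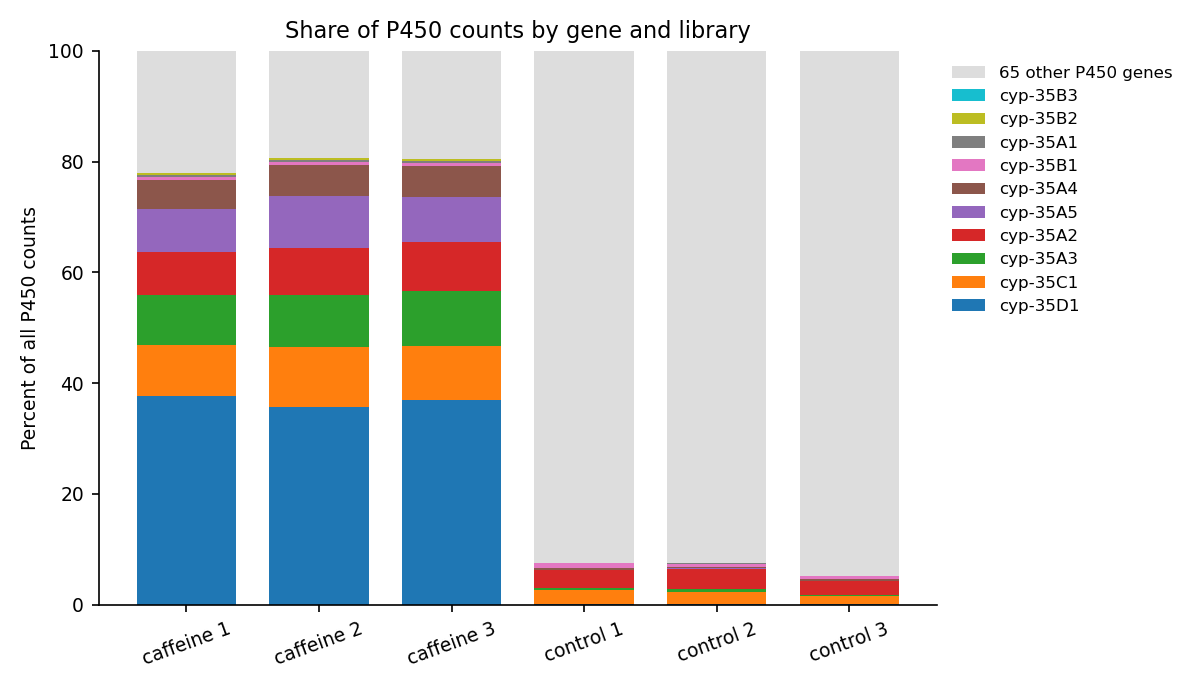
Percent of all P450 counts taken by each cyp-35 gene (colours) and by the 65 other P450 genes together (grey), with caffeine libraries left and control libraries right. The coloured part reaches between 77.9% and 80.6% in caffeine libraries and between 5.23% and 7.57% in control libraries, and cyp-35D1 is its largest piece with caffeine.

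Within the family, the share of cyp-35D1 was 46.2% ± 2.08 of family counts with caffeine and 2.90% ± 0.388 in control (SD, n = 3 each). cyp-35A2 held 10.5% ± 0.427 with caffeine and 46.4% ± 3.98 in control, and cyp-35C1 held 12.5% ± 0.772 with caffeine and 28.6% ± 3.57 in control. cyp-35B1 held 0.613% ± 0.0511 of family counts with caffeine and 10.1% ± 2.37 in control.

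The order of members by CPM per kilobase differed between the groups at its top and in its middle. With caffeine, the order ran cyp-35D1, cyp-35C1, cyp-35A3, cyp-35A2, cyp-35A5, cyp-35A4, cyp-35B1, cyp-35A1, cyp-35B2 and cyp-35B3. In control it ran cyp-35A2, cyp-35C1, cyp-35B1, cyp-35A3, cyp-35A4, cyp-35D1, cyp-35A5, cyp-35A1, cyp-35B2 and cyp-35B3. cyp-35D1 was thus at place 1 with caffeine and 6 in control, cyp-35B1 at place 7 with caffeine and 3 in control, and cyp-35A2 at place 4 with caffeine and 1 in control. These places of cyp-35D1 held in each of the 6 libraries, while in caffeine library 2 cyp-35B1 ranked 8 and cyp-35A2 ranked 5. By group mean the lowest 3 places were held by cyp-35A1, cyp-35B2 and cyp-35B3 in both groups.

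Several neighbours in these orders overlapped in their values across libraries. With caffeine, cyp-35D1 at 1388 ± 168 CPM per kilobase lay clear of the next gene. cyp-35C1 (390 ± 84.3), cyp-35A3 (356 ± 64.9), cyp-35A2 (315 ± 58.9) and cyp-35A5 (293 ± 69.3) each overlapped the next in their values, the last of them with cyp-35A4 (212 ± 39.5; CPM per kilobase, SD, n = 3). Within a library, cyp-35C1 lay above cyp-35A3, cyp-35A3 above cyp-35A2 and cyp-35A5 above cyp-35A4 in 3 of 3 caffeine libraries, and cyp-35A2 above cyp-35A5 in 2 of 3. A wide step followed, since all 3 values of cyp-35A4 lay above those of cyp-35B1 at 17.6 ± 1.90 CPM per kilobase. cyp-35B1, cyp-35A1 (15.9 ± 2.91) and cyp-35B2 (11.7 ± 3.98) overlapped again.

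In control, cyp-35A2 (16.8 ± 3.42) and cyp-35C1 (10.98 ± 3.58) overlapped although cyp-35A2 was the higher in each library (CPM per kilobase, SD, n = 3). cyp-35B1 (3.50 ± 0.987) was separated from cyp-35C1 above it. From cyp-35A3 (2.04 ± 0.838) below, it was barely separated: its lowest value was 2.871 against a highest of 2.854, both in control library 2. cyp-35A3 overlapped cyp-35A4 (1.65 ± 0.179). cyp-35D1 (1.05 ± 0.154) was separated from cyp-35A4 above it and cyp-35A5 (0.391 ± 0.244) below it. cyp-35A5 and cyp-35A1 (0.334 ± 0.137) overlapped. As a description over 10 genes, Spearman's rho of member levels was 0.66 between the group means, between 0.45 and 0.66 for pairs of a caffeine and a control library, at least 0.95 between caffeine libraries and at least 0.98 between control libraries.

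**Figure D3:**
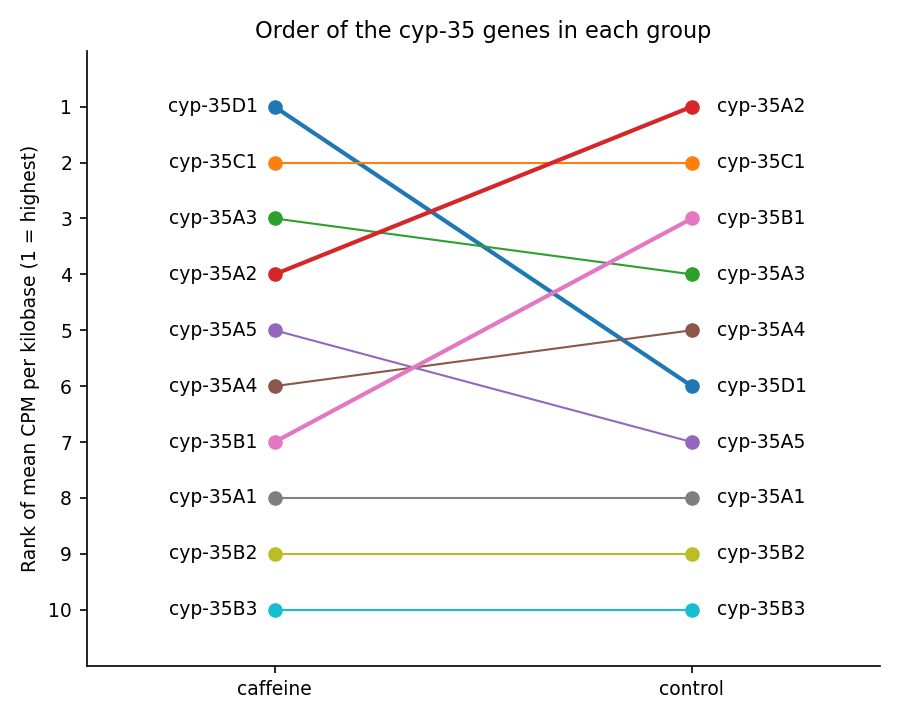
Rank of each cyp-35 gene by mean CPM per kilobase in caffeine libraries (left) and control libraries (right), with thick lines for genes that differ by 3 places or more. cyp-35D1 is at place 1 with caffeine and 6 in control, and cyp-35C1 is at place 2 in both.

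The 5 members next to cyp-35D1 in the caffeine order lay closer to each other in level with caffeine than in control. cyp-35A3 was at 1.12 to 1.14 times the per-kilobase level of cyp-35A2 in caffeine libraries, against 0.0901 to 0.144 times in control libraries. cyp-35A5 was at 0.852 to 1.02 times the level of cyp-35A2 with caffeine and at 0.00883 to 0.0294 times in control. cyp-35D1 was at 3.22 to 3.94 times the level of cyp-35C1 with caffeine and at 0.0855 to 0.127 times in control.

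Set among all 75 P450 genes by mean CPM per kilobase, the cyp-35 family filled places 1 to 6 with caffeine. In control the highest members were cyp-35A2 at place 6 and cyp-35C1 at place 10, and cyp-35D1 was at place 37. cyp-31A2, known in C. elegans for a part in forming the eggshell, was at place 8 with caffeine and place 1 in control, at 133 CPM per kilobase with caffeine and 127 CPM per kilobase in control, with a log2 fold change of 0.07. It was followed in control by its relatives cyp-31A3 and cyp-31A5.

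As a set, the other P450 genes had a lower median change and a smaller rise in summed level, although single genes among them rose more than some cyp-35 genes. Of 65 genes outside cyp-35, 54 were tested, and 28 were called higher and 3 lower with caffeine, where 13.8% of all tested genes were called higher and 10.5% lower. Of these 54, 11 passed the filter only through caffeine libraries. Their median log2 fold change was 0.69, beside 7.0 for the tested cyp-35 genes and 0.00 for all tested genes. Their summed level was 1207 ± 95.8 CPM with caffeine and 798 ± 19.4 CPM in control (SD, n = 3 each), 1.51 times as high with caffeine, against 81.9 times for the cyp-35 family at 4758 ± 775 CPM and 58.1 ± 13.2 CPM. The exact permutation p was 0.1 for each sum, the smallest possible with n = 3 each.

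Outside the family, among called P450 genes of 100 or more mean counts, the largest rise was that of cyp-14A4 on chromosome X. It had 368, 879 and 633 counts with caffeine, against 5, 4 and 10 in control, a log2 fold change of 6.55 (SE 0.41). cyp-34A10 followed at a log2 fold change of 5.22 (SE 0.29), then cyp-14A2 at 3.71 (SE 0.33), cyp-34A9 at 3.20 (SE 0.27) and cyp-29A3 at 2.07 (SE 0.22). cyp-34A9 was the most abundant of these, at 257 CPM with caffeine and 28.0 CPM in control. Higher calls were counted in subfamilies with at least 3 tested genes, beside the 13.8% of all tested genes. Called higher were 5 of 6 cyp-34A genes, 4 of 5 cyp-14A genes, 3 of 3 cyp-29A genes and 2 of 4 cyp-25A genes. In the remaining subfamilies, 2 of 3 cyp-33E, 3 of 8 cyp-33C, 2 of 7 cyp-13A and 0 of 3 cyp-31A genes were. Genes called higher that passed the filter only through caffeine libraries numbered 1 in cyp-34A, 2 in cyp-14A, 1 in cyp-33E and 2 in cyp-13A. cyp-14A4 and cyp-34A10 were among them. Lower calls numbered 2 in cyp-13A and 1 in cyp-33C. The 0 in cyp-31A came from edgeR and was also 0 with DESeq2 and limma-voom, while 2 of these 3 genes were higher at an unadjusted p under 0.05. cyp-13A5 fell by 2.03 on the log2 scale (SE 0.25), and cyp-33C8 fell by 1.28 (SE 0.19).

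**Figure D4:**
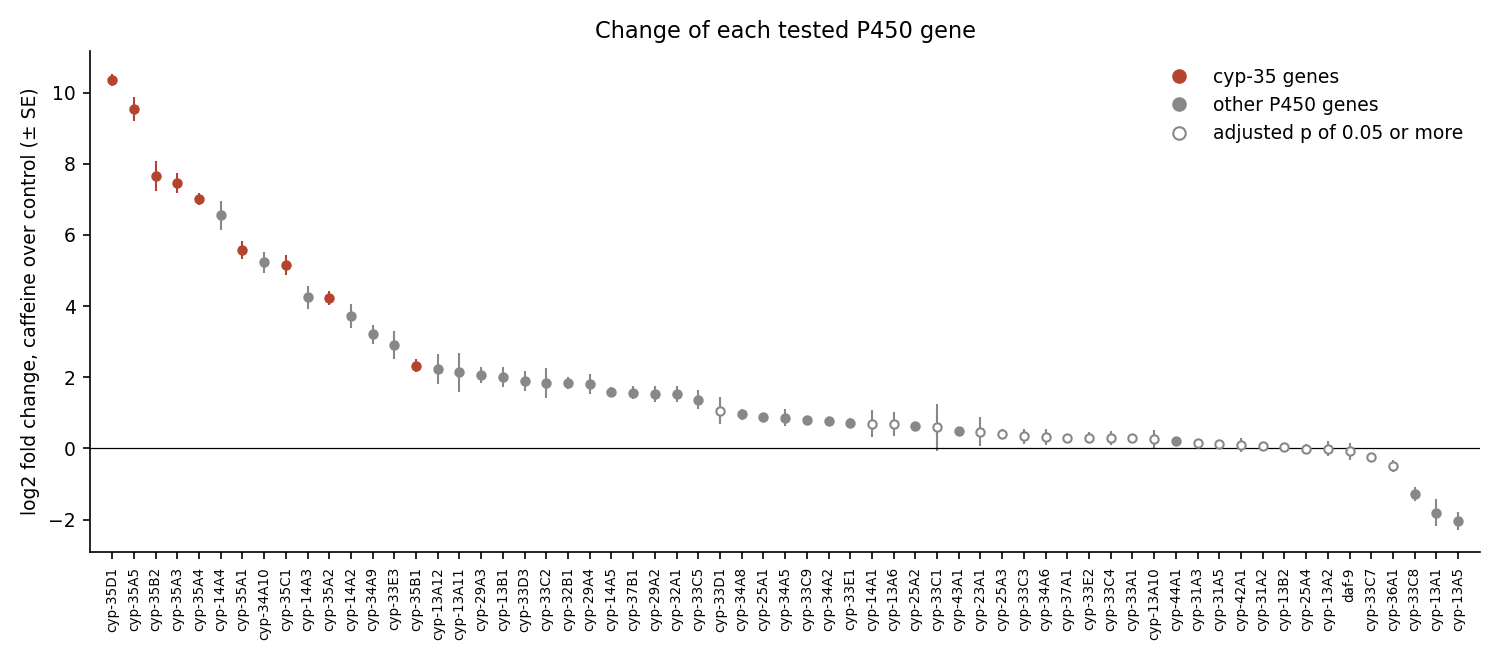
Log2 fold change of caffeine over control with its standard error for the 63 tested P450 genes, ordered by size, with cyp-35 genes in red and genes not called as open points. The 5 largest changes belong to cyp-35 genes, and cyp-35B1 at 2.33 lies among other P450 genes.

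A list of 9 genes was examined, all of which were tested. It held genes for redox partners of P450 enzymes (emb-8, cytb-5.1 and cytb-5.2) and haem-responsive hrg genes, which are not P450 partners. Of the 9 genes, 7 were called higher with caffeine and 0 lower by edgeR, where 13.8% of all tested genes were called higher. None was lower at an unadjusted p under 0.05, and DESeq2 and limma-voom also called 0 lower. Of the 7, cytb-5.1 and cytb-5.2 are redox partner genes and the others are hrg genes. Among the 7, hrg-3 passed the filter only through caffeine libraries, which favours a rise. The median log2 fold change of the list was 1.01. emb-8, which encodes the NADPH-cytochrome P450 reductase, was not called. It had 10320, 10838 and 10746 counts with caffeine, against 10656, 10190 and 9833 in control, a log2 fold change of 0.02 (SE 0.05). The groups overlapped in this gene.

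cytb-5.1, a cytochrome b5 gene, had 4472, 5874 and 5015 counts with caffeine, against 1386, 1596 and 1652 in control, a log2 fold change of 1.69 (SE 0.09). The other cytochrome b5 gene of the list, cytb-5.2, rose by 0.39 (SE 0.07). hrg-7, a haem-responsive gene for a secreted protein, had 9150, 10146 and 10650 counts with caffeine, against 1788, 2135 and 2245 in control, a log2 fold change of 2.24 (SE 0.09). hrg-4 and hrg-1, whose products carry haem across membranes of intestinal cells, had log2 fold changes of 1.55 (SE 0.18) and 0.64 (SE 0.19). hrg-3, which encodes a haem carrier from intestine to embryos, rose by 2.27 (SE 0.40) on 20, 31 and 45 counts with caffeine and 6, 8 and 5 in control. hrg-9, with a log2 fold change of 1.01 (SE 0.24), completed the 7. The adjusted p of hrg-1 was 0.0400, and that of hrg-9 was 0.0186 (edgeR quasi-likelihood test, Benjamini-Hochberg). In edgeR fits that left out 1 library, hrg-1 lost the call without control 1, control 3, caffeine 1 or caffeine 3, at an adjusted p of up to 0.127, and hrg-9 without control 1, control 2 or caffeine 2, at up to 0.0607. hrg-2 had a log2 fold change of -0.25 (SE 0.41) and was not called.

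None of 14 genes for regulators linked to xenobiotic responses or to cyp-35 expression was called higher with caffeine, where 13.8% of all tested genes were. All 14 were tested, 6 were called lower, where 10.5% of all tested genes were, and the median log2 fold change was -0.27. The count of 0 higher came from edgeR and was also 0 with DESeq2 and limma-voom, and at an unadjusted p under 0.05 the list held 1 higher gene, nhr-176. pqm-1, a zinc finger transcription factor gene, had 1247, 1179 and 1203 counts with caffeine, against 2522, 2479 and 2055 in control, a log2 fold change of -0.99 (SE 0.10). cebp-1, a bZIP factor gene, and nhr-8, a nuclear receptor gene with a role in resistance to foreign chemicals, had log2 fold changes of -0.89 (SE 0.16) and -0.86 (SE 0.16). mdt-15, a Mediator subunit gene required in C. elegans for the expression of many detoxification genes, had one of -0.36 (SE 0.08). In edgeR fits that left out 1 library, mdt-15 lost its call without control 2 or caffeine 3 (adjusted p up to 0.0548). skn-1, at -0.31, lost it without any of the 3 controls or caffeine 3 (edgeR adjusted p up to 0.0756), and nhr-86, at -0.30, without control 1, control 2, caffeine 2 or caffeine 3 (edgeR adjusted p up to 0.0687). ahr-1, the aryl hydrocarbon receptor gene, had 26, 26 and 18 counts with caffeine, against 32, 38 and 15 in control, and was not called.

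The neighbourhood of the members on chromosome V was uneven. The 10 genes lie at 5 places, with cyp-35A5 and the cyp-35B genes in one row, cyp-35A3 and cyp-35A4 7136 bases apart, cyp-35A1 and cyp-35A2 side by side, and cyp-35C1 and cyp-35D1 on their own. Within 10 kb of a member the annotation places 53 other genes, of which 23 were tested. Of these, 11 were called higher, where 13.8% of all tested genes were, and 4 lower, where 10.5% were, and the median log2 fold change was 0.39. Of the 23, 7 passed the filter only through caffeine libraries, which favours a rise. Of these 7, 5 were among the 11 called higher: srj-14, spp-12 and the 3 pseudogenes beside cyp-35D1.

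nhr-176 starts 6 bases past the end of cyp-35D1 on the same strand. It encodes a nuclear receptor known in C. elegans to be needed for the induction of cyp-35D1 by thiabendazole. It had 184, 241 and 223 counts with caffeine, against 175, 146 and 158 in control, so all caffeine values lay above all control values by a small amount. Its log2 fold change was 0.39 (SE 0.13) and was not called (edgeR adjusted p 0.0554), but it was called when caffeine library 1 was left out (edgeR adjusted p 0.0357).

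On the other side of cyp-35D1 lie 3 pseudogenes with more counts under caffeine. WBGene00014735 (16063551 to 16064108, plus strand) had 228, 268 and 320 counts with caffeine and 0 in each control library. Its mean caffeine level was at least 88.2 times its mean control level, with a floor of 3 counts for each control library. WBGene00008827 (16064447 to 16067002, minus strand) had 84, 185 and 242 counts with caffeine, against 5, 8 and 8 in control, a log2 fold change of 4.53 (SE 0.45). WBGene00008828 (16067947 to 16068763, minus strand), 474 bases from cyp-35D1, had 15, 44 and 21 counts with caffeine, against 0, 0 and 3 in control.

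Around cyp-35A3 and cyp-35A4 the directions were mixed. K09D9.1, which starts 564 bases past cyp-35A3 on the same strand, fell by 1.27 on the log2 scale (SE 0.17), with 298, 457 and 386 counts under caffeine and 1087, 860 and 716 in control. C49G7.7, 1029 bases past cyp-35A4, fell by 1.31 (SE 0.13). Near cyp-35C1, the lysosomal fatty acid binding protein gene lbp-8 (13890773 to 13891364, plus strand) had 424, 938 and 999 counts with caffeine, against 70, 46 and 20 in control, a log2 fold change of 4.06 (SE 0.42). The saposin-like gene spp-12 had one of 3.37 (SE 0.54), and C06B3.6 fell by 1.70 (SE 0.21). sptl-3, a serine palmitoyltransferase gene 247 bases from cyp-35C1, was not called at a log2 fold change of 0.22 (SE 0.07). dach-1, 2978 bases past cyp-35B3, rose by 2.27 (SE 0.19), and exc-13 and srj-14, beside cyp-35A2, rose by 1.23 (SE 0.16) and 1.70 (SE 0.39). srj-14 lost its call without control 1, control 2 or caffeine 2 (edgeR adjusted p up to 0.0555).

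**Figure D5:**
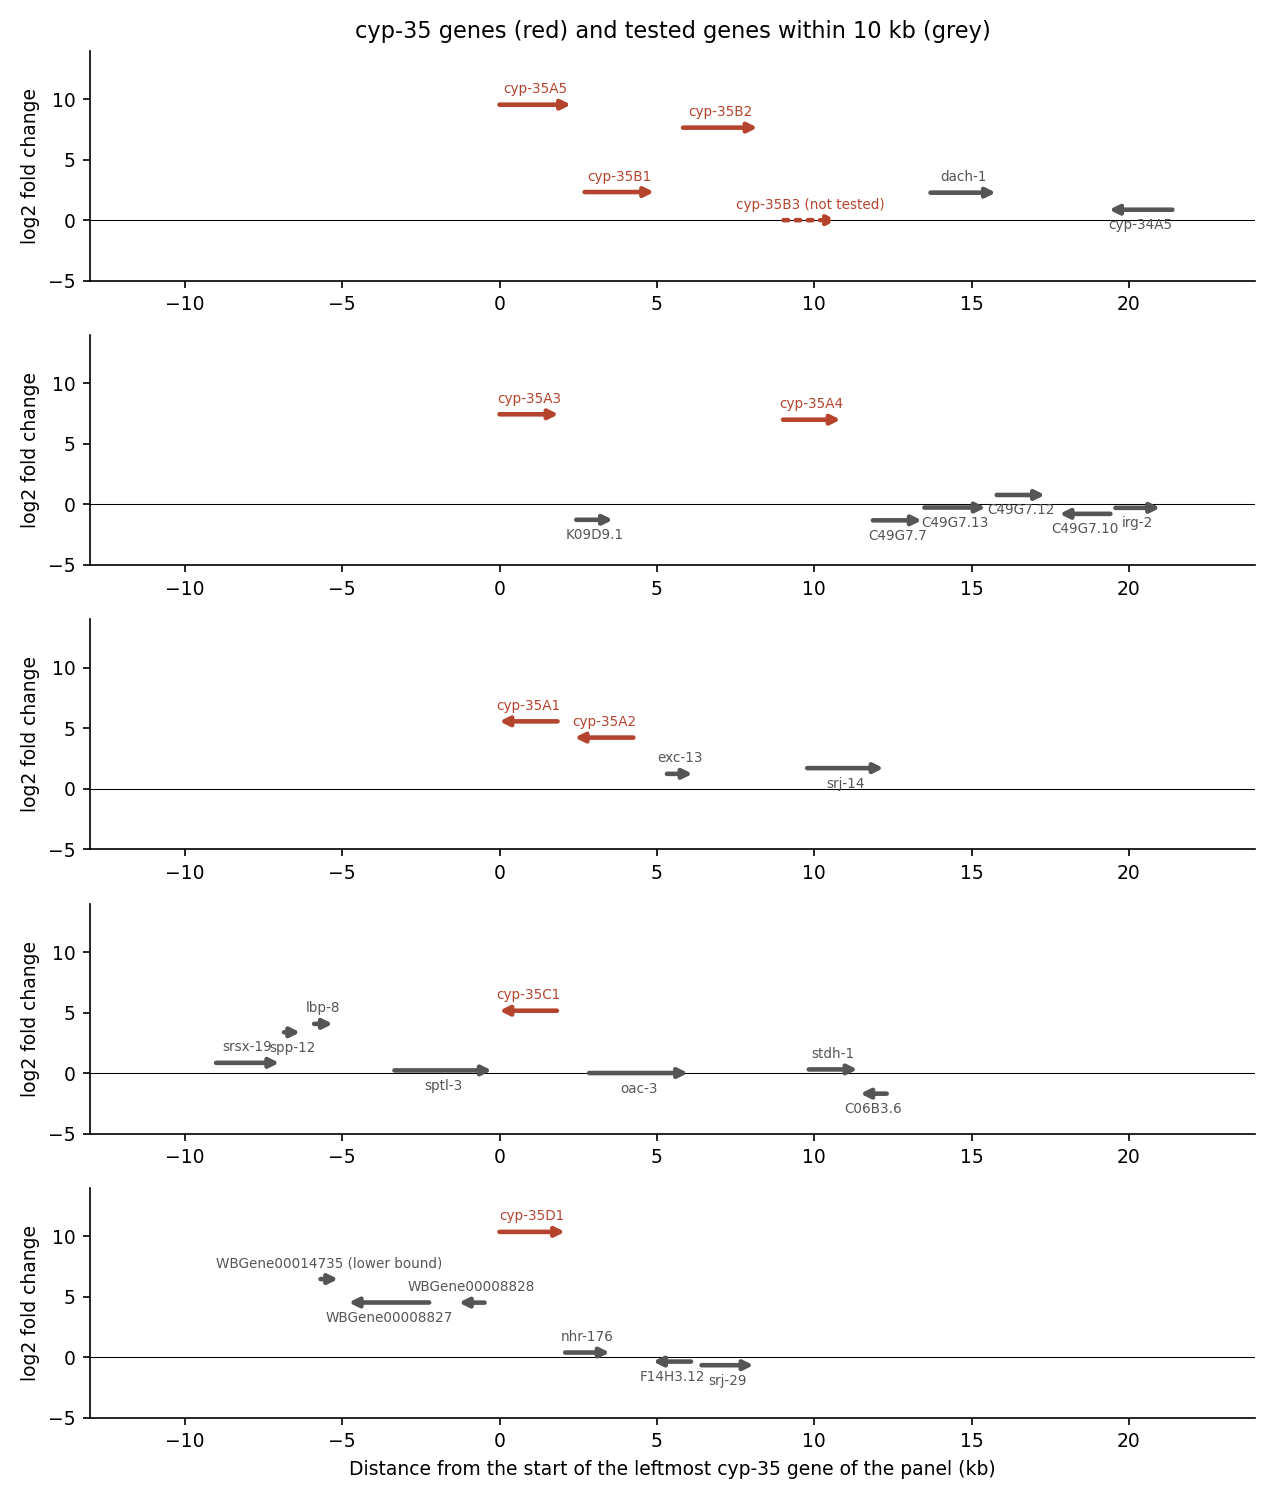
Log2 fold change of caffeine over control (vertical axes) of cyp-35 genes (red) and tested genes within 10 kb (grey) at the 5 places of the family, as arrows along the distance in kb from the start of the leftmost member. Red arrows at 2.33 or more stand beside some grey arrows near or below 0, such as K09D9.1 at -1.27 and nhr-176 at 0.39. Other grey arrows lie well above 0, such as lbp-8 at 4.06 and dach-1 at 2.27. Of the 23 tested neighbours, 11 were called higher and 4 lower. WBGene00014735 is drawn at its lower bound, and the untested cyp-35B3 is dashed at 0.

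The annotated exon number differed among the members. The 5 cyp-35A genes and cyp-35C1 have 7 exon blocks in the annotation, the 3 cyp-35B genes have 5 and cyp-35D1 has 6. Exon lengths ran from 1500 bases in cyp-35B3 to 1727 bases in cyp-35A5.

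The genes whose pattern over the 6 libraries was nearest to the family were found by the Euclidean distance between log2 CPM values, each centred on its mean, and the mean centred profile of the 9 tested members. Of 9812 other genes averaging 100 counts or more, the nearest was T10B5.8 at a distance of 0.695. Within the family, cyp-35A4 lay at 0.687 and cyp-35B1 at 5.15. Each member is part of the mean profile, which draws its own distance down, so distances of members and of other genes are not strictly comparable. T10B5.8 had 2373, 3627 and 3735 counts with caffeine, against 45, 43 and 15 in control. The next were E02C12.10 at 0.880, the glucuronosyltransferase gene ugt-8 at 1.03 and the short-chain dehydrogenase gene dhs-23 at 1.04. The rule also named the pseudogene WBGene00014735, but with 0 counts in each control library its distance is set by the prior count of 2 added before the log2, and no value is given for it. The prior count also bears on the distances of E02C12.10 and dhs-23, which had few control counts, and through cyp-35B2 on the mean profile itself. ugt-8 had 2156, 3176 and 3498 counts with caffeine, against 39, 24 and 9 in control, and dhs-23 had 627, 1103 and 855, against 9, 14 and 2. All 5 lie on chromosome V, as the members do, and the pseudogene lies beside cyp-35D1. The share of the 9812 genes that lie on this chromosome is not given here. The distances rest on 2 groups and mostly express the size of the change, and E02C12.10 had values that were not whole in 4 libraries.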

How the data were processed

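Libraries were strand-specific, made from polyadenylated RNA of whole animals and sequenced as read pairs, per the labels' protocols. The authors deposited expected counts per WormBase gene ID for each library, per the file headers, not scaled by depth or length. The submitters' processing notes name STAR 2.7.0e, RSEM 1.3.1 and the builds WBcel235 and ce11, without roles. Which annotation was counted, and whether by strand, is not given in the sources used here. Symbols came from a table of gene names, which matched 44017 of 46904 IDs, and coordinates and exon lengths from Ensembl release 115 of WBcel235.

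Expected counts were rounded, filtered with filterByExpr of edgeR 4.0.16 (minimum count 10, minimum total 15), scaled by TMM (factors 0.960 to 1.07) and tested with the edgeR quasi-likelihood test in R 4.3.3 on all 6 libraries without covariates. P-values were adjusted by Benjamini-Hochberg over 14200 genes, and genes were called at an adjusted p under 0.05. The standard error is the log2 fold change divided by the square root of F. The script was tested on simulated data. Shares were compared by exact permutation tests.

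The members, lists and alternatives were chosen with earlier results of these data known. Besides the members, the text names the list of 9 redox partner and hrg genes and 14 regulators. It also names the 5 largest rises and up to 3 largest falls among other P450 genes (2 qualified). Called neighbours within 10 kb at 2-fold or more and the 5 genes nearest in pattern are named too. Other genes named, such as cyp-31A2 and sptl-3, were chosen after their values were seen. Alternatives were DESeq2 1.42.0, limma-voom (limma 3.58.1), other scalings and filters, a replicate block and leaving out each library. Promoter and protein features were not analysed here.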

Additional observations from a re-analysis of the deposited data

How the results depend on the processing

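All 9 tested cyp-35 genes kept their direction and their call in each of the 14 alternatives, with an adjusted p of at most 0.00160, and the number of members called stayed at 9. P450 genes outside the family called higher numbered between 24 and 32 over the fits that left out 1 library, and those called lower 2 or 3. Over all genes, leaving out 1 library gave between 1209 and 2264 genes higher, with the fewest without control library 2, and between 698 and 2512 lower, with the fewest again without control library 2 and the most without caffeine library 1. With 1 library left out, the difference in the share of P450 counts ran from 72.1 to 73.8 percentage points, that in the share of all counts from 0.434 to 0.536 points, and rho between the orders of members from 0.59 to 0.66. Of 45 other named genes, 33 kept direction and call in each alternative that tested them. Among these 33, hrg-3, ahr-1, spp-12 and WBGene00008828 were tested in 13 of the 14 alternatives. Reversals were limited to 4 genes that were not called with all libraries. With 1 library left out, emb-8 ranged from -0.012 to 0.046, below 0 without control 3 or caffeine 1. hrg-2 ranged from -0.76 to 0.022, above 0 without caffeine 2, and daf-16 from -0.0049 to 0.073, below 0 without caffeine 1. sbp-1 ranged from -0.199 to 0.066, above 0 without caffeine 2 or caffeine 3 and called lower without caffeine 1 (edgeR adjusted p 0.0433), and was at 0.012 with library totals and 0.0016 with upper-quartile factors. aha-1 gained a lower call with DESeq2 (adjusted p 0.0470). The cause was not tested. Deviations of same-numbered libraries correlated at -0.18, -0.16 and 0.25, within the range of unlike-numbered libraries, from -0.34 to 0.43. With 3 libraries per group, these values cannot show whether the replicate numbers pair the samples. With the replicate number as a block, 1496 genes were higher and 1074 lower, with 9 cyp-35 genes among the higher, and hrg-1, hrg-9 and srj-14 lost their calls. Depth limits cyp-35B3, which had 2 counts in all.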
